A study of Mus musculus with 12 samples.

Results

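Ndufa4l2, Bnip3, Ankrd37, Adm, Vegfa, Egln1, Egln3, Hif1a, Epas1 and Car9 are 10 genes of the low-oxygen response, of 24463 genes that could be tested on these arrays. Every non-control probe whose RefSeq accession belonged to one of these genes was taken, which gave 16 probes. All 16 were well above background on all 12 arrays, so none of the 10 genes depended on 1 group to pass the filter on dim probes. Ndufa4l2 was chosen by the size of its change, as its RNA was 35.5-fold higher in wild-type 2i+LIF cells than in wild-type LIF cells, and 58.0-fold higher in Nat1-null LIF cells than in wild-type LIF cells. Those values, and any difference computed from them, are therefore descriptions without a test. No other gene of the 10 exceeded 9.72-fold in either comparison. The question was whether other genes of the response followed it.

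RNA levels were measured in mouse embryonic stem cells on single-colour arrays, 3 for each of 4 groups. The groups, with the medium in brackets, were Nat1-null cells (2i+LIF), Nat1-null cells (LIF), wild-type cells (2i+LIF) and wild-type cells (LIF). LIF is leukemia inhibitory factor, the cytokine that all 4 groups received, and 2i is a pair of kinase inhibitors directed at MEK and GSK3. All cells were grown on gelatin, without an added low-oxygen condition in the labels. Nat1 here is the translation factor gene listed in RefSeq as Eif4g2. The titles number the cells 1 to 3 within each genotype and use the same numbers in both media, without saying whether a number marks a line, a clone or a culture. P-values therefore measure the spread between these samples, which may be technical.

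Cells sense oxygen through prolyl hydroxylases, the Egln enzymes, which mark the alpha subunits of hypoxia-inducible factor (HIF) when oxygen is present. The marked subunits are bound by the Vhl ubiquitin ligase and degraded. When the subunits escape, Hif1a or Epas1 (HIF-2 alpha) pairs with Arnt and binds short DNA elements that contain ACGTG or GCGTG, and genes for glycolysis, mitochondrial turnover and blood vessel growth are transcribed. Control of the alpha subunits is mainly at the protein, which these arrays do not measure.

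The genotype labels were checked on Eif4g2. Its level, given as log2 processed signal relative to the 75th percentile of the array (the scale of every level here), was 1.31 ± 0.10 in Nat1-null 2i+LIF, 1.28 ± 0.04 in Nat1-null LIF, 4.20 ± 0.10 in wild-type 2i+LIF and 4.49 ± 0.05 in wild-type LIF cells (mean ± SD, n = 3 each). All 8 embryonic stem cell markers were above background on every array. Their summed linear signal was 277 to 307 times the 75th percentile in Nat1-null 2i+LIF, 344 to 427 in Nat1-null LIF, 243 to 258 in wild-type 2i+LIF and 163 to 170 in wild-type LIF cells. The corresponding sum of 15 fibroblast markers was 194 to 206 in Nat1-null 2i+LIF, 121 to 139 in Nat1-null LIF, 167 to 176 in wild-type 2i+LIF and 408 to 433 in wild-type LIF cells. Of these 15, 8 were above background on all arrays of Nat1-null 2i+LIF, 10 of Nat1-null LIF, 11 of wild-type 2i+LIF and 14 of wild-type LIF cells. Lum was above background on no array, Postn only in wild-type LIF cells and Dcn only in wild-type cells. In bulk RNA, fewer cells of a type and less RNA per cell cannot be told apart. Wild-type LIF arrays lay on slide 1, wild-type 2i+LIF arrays on slide 2 and all Nat1-null arrays on slide 3. Slide and group can therefore be told apart only in the comparison of the 2 media in Nat1-null cells.

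Promoters are shown for 6 of the genes because the results turn on how far these HIF targets moved together, and one of them, Car9, did not move with the rest. Each window holds the 250 bases before a RefSeq start of the gene in GRCm38.p6, read 5′ to 3′ on the strand of the gene. Capitals mark ACGTG or GCGTG on that strand, or CACGT or CACGC, which are the same letters on the other strand. Overlapping matches run together: CACGTG holds 1 match on each strand, and so does CACGCGTG.
Bnip3 (chr7:138909507-138909756, minus strand): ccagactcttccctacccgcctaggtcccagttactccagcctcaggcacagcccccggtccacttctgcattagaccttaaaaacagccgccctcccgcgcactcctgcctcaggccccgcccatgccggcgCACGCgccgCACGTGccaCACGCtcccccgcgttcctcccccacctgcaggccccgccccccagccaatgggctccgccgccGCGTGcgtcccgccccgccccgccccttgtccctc
Ankrd37 (chr8:45999851-46000100, minus strand): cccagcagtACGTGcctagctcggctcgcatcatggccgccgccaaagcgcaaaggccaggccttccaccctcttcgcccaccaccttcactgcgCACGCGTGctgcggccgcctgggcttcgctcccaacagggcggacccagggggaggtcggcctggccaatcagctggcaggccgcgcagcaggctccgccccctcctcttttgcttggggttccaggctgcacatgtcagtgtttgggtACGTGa
Adm (chr7:110627407-110627656, plus strand): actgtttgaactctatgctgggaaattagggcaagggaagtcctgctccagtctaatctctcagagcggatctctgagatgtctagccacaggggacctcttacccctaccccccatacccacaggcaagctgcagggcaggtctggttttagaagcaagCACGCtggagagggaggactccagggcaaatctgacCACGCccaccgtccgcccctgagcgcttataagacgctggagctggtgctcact
Egln1 (chr8:124949255-124949504, minus strand): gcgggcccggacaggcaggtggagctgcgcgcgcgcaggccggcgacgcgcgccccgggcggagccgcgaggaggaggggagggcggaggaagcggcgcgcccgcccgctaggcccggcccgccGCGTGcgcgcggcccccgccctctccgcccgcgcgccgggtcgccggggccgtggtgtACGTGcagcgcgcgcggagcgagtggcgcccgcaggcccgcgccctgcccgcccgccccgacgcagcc
Egln3 (chr12:54203875-54204124, minus strand): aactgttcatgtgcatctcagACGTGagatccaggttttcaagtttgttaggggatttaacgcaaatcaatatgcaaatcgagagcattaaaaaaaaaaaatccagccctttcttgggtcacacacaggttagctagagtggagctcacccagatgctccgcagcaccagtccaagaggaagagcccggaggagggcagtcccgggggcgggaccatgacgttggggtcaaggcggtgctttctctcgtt
Car9 (chr4:43506776-43507025, plus strand): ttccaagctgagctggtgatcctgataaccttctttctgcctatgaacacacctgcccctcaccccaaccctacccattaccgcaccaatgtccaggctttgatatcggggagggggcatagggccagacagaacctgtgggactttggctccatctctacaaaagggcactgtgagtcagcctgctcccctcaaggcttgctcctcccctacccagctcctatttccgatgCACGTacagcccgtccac
Bnip3 had 5 matches, Ankrd37 had 4, Adm and Egln1 had 2 each, and Egln3 and Car9 had 1 each. Of the genes whose windows are not shown, Hif1a had 3 matches. Vegfa, on the minus strand, had 0 matches in its upstream window (chr17:46032378-46032627). Its 2 matches were in the window of a start further downstream (chr17:46025164-46025413). Of the 10 genes, 8 had a promoter window, and all 8 held at least 1 match in 1 window, Vegfa only in the downstream one. Among 32851 mouse promoter windows of the same length, 38.6% held a match and 6.58% held 3 or more. A match is a run of letters and not a measured binding site.

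Ndufa4l2 encodes a mitochondrial protein related to Ndufa4, a subunit of respiratory complex IV, and is a known HIF-1 target. Its level was 3.87, 3.99 and 3.88 in the Nat1-null 2i+LIF arrays and 3.77, 4.22 and 3.51 in the Nat1-null LIF arrays. It was 3.23, 2.80 and 3.35 in the wild-type 2i+LIF arrays and -2.21, -2.17 and -1.69 in the wild-type LIF arrays. The 9 arrays with 2i, with Nat1 loss or with both were all at least 4.49 log2 units above the highest wild-type LIF array. The log2 difference was 5.15 for 2i in wild-type cells (95% CI 4.68 to 5.61) and 5.86 for Nat1 loss in LIF (95% CI 5.39 to 6.32), and both use the same wild-type LIF arrays. Neither was tested, since they chose the gene. The other comparisons did not choose the gene, although they share arrays with those that did. In 2i+LIF, Nat1-null arrays were above wild-type arrays with no overlap, by 0.78 (1.72-fold, 95% CI 0.32 to 1.25, limma adjusted p = 0.0121). In Nat1-null cells, the 2 media overlapped and the difference was 0.08 (95% CI -0.39 to 0.54, adjusted p = 0.801). The response of Ndufa4l2 to 2i thus differed by -5.07 log2 units in Nat1-null cells relative to that in wild-type cells, also a description.

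A further 4 effector genes had the same shape of profile, with the wild-type LIF arrays low and the other 3 groups high. Bnip3, a mitochondrial protein that acts in mitophagy, had 6.22, 6.66 and 6.36 in Nat1-null 2i+LIF, 5.99, 6.54 and 5.77 in Nat1-null LIF, 6.10, 6.02 and 6.35 in wild-type 2i+LIF and 3.28, 3.45 and 3.83 in wild-type LIF arrays. The lowest of the first 9 arrays was 1.95 above the highest wild-type LIF array, and those 3 groups overlapped each other. Bnip3 rose 6.22-fold with 2i in wild-type cells (log2 difference 2.64, SE 0.21, adjusted p = 3.88e-06) and 5.997-fold with Nat1 loss in LIF (2.58, SE 0.21, adjusted p = 2.68e-06). In 2i+LIF, the Nat1-null minus wild-type difference was 0.25 (95% CI -0.22 to 0.73, adjusted p = 0.365). In Nat1-null cells, the 2i difference was 0.31 (95% CI -0.17 to 0.78, adjusted p = 0.286). Its other 2 probes gave 2.78 and 2.95 for 2i in wild-type cells and 2.78 and 3.27 for Nat1 loss in LIF, and one of them, A_66_P120736, passed for Nat1 loss in 2i+LIF at 0.60 (adjusted p = 0.0479).

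Ankrd37, an ankyrin-repeat protein induced by HIF-1 in many cells, had 2.51, 2.92 and 2.58 in Nat1-null 2i+LIF, 2.00, 2.53 and 1.76 in Nat1-null LIF, 2.13, 1.96 and 2.24 in wild-type 2i+LIF and 0.32, 0.19 and 0.40 in wild-type LIF arrays. The wild-type LIF arrays were again separate from all others, and the Nat1-null 2i+LIF arrays were above all wild-type 2i+LIF arrays. Ankrd37 rose 3.50-fold with 2i in wild-type cells (1.81, SE 0.18, adjusted p = 1.80e-05) and 3.47-fold with Nat1 loss in LIF (1.79, SE 0.18, adjusted p = 1.31e-05). It also passed for Nat1 loss in 2i+LIF (0.56, 1.47-fold, adjusted p = 0.0331) and for 2i in Nat1-null cells (0.57, 1.49-fold, adjusted p = 0.0344), where the groups overlapped. Both smaller calls were lost without replicate 2 or 3 of Nat1-null 2i+LIF, at 0.43 and 0.60 for Nat1 loss and 0.45 and 0.62 for 2i. The first was also lost without wild-type 2i+LIF replicate 1 (0.57) or 2 (0.48), and the second without Nat1-null LIF replicate 1 (0.52) or 3 (0.41). With quantile normalization (adjusted p = 0.0664 and 0.0622) and without the filter on dim probes (adjusted p = 0.0578 and 0.0632) neither passed. The second also failed without scaling between arrays (0.38), in the fit on the 2 Nat1-null groups alone (adjusted p = 0.134) and with the replicate number as a block (adjusted p = 0.0509).

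Adm, the precursor of the vasodilator peptide adrenomedullin, had 0.46, 0.85 and 0.38 in Nat1-null 2i+LIF, 0.88, 1.24 and 0.54 in Nat1-null LIF, 0.86, 0.64 and 0.94 in wild-type 2i+LIF and -1.68, -1.75 and -1.57 in wild-type LIF arrays. The 3 high groups overlapped each other and none reached down to wild-type LIF. Adm rose 5.58-fold with 2i in wild-type cells (2.48, SE 0.18, adjusted p = 1.69e-06) and 5.87-fold with Nat1 loss in LIF (2.55, SE 0.18, adjusted p = 7.72e-07). The differences of Nat1 loss in 2i+LIF (-0.25, adjusted p = 0.285) and of 2i in Nat1-null cells (-0.32, adjusted p = 0.182) did not pass. Without Nat1-null LIF replicate 3 the second became -0.49 and passed (adjusted p = 0.0439).

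Vegfa, the growth factor for blood vessels, had 3.00, 3.32 and 3.03 in Nat1-null 2i+LIF, 2.86, 3.46 and 2.76 in Nat1-null LIF, 2.81, 2.65 and 2.81 in wild-type 2i+LIF and 0.84, 0.82 and 0.82 in wild-type LIF arrays. The 3 wild-type LIF arrays lay close together and at least 1.82 log2 units below all others. Vegfa rose 3.82-fold with 2i in wild-type cells (1.93, SE 0.16, adjusted p = 5.51e-06) and 4.61-fold with Nat1 loss in LIF (2.20, SE 0.16, adjusted p = 1.31e-06). For Nat1 loss in 2i+LIF the difference was 0.36 (95% CI -0.01 to 0.73, adjusted p = 0.106) although the groups did not overlap. It passed at the same value without Nat1-null LIF replicate 2 (adjusted p = 0.00956), and a second Vegfa probe gave 0.92 and passed (adjusted p = 0.00705). The 2i difference in Nat1-null cells was 0.09 (95% CI -0.28 to 0.45, adjusted p = 0.716) and became 0.30 without Nat1-null LIF replicate 2 (adjusted p = 0.0383).

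**Figure D1:**
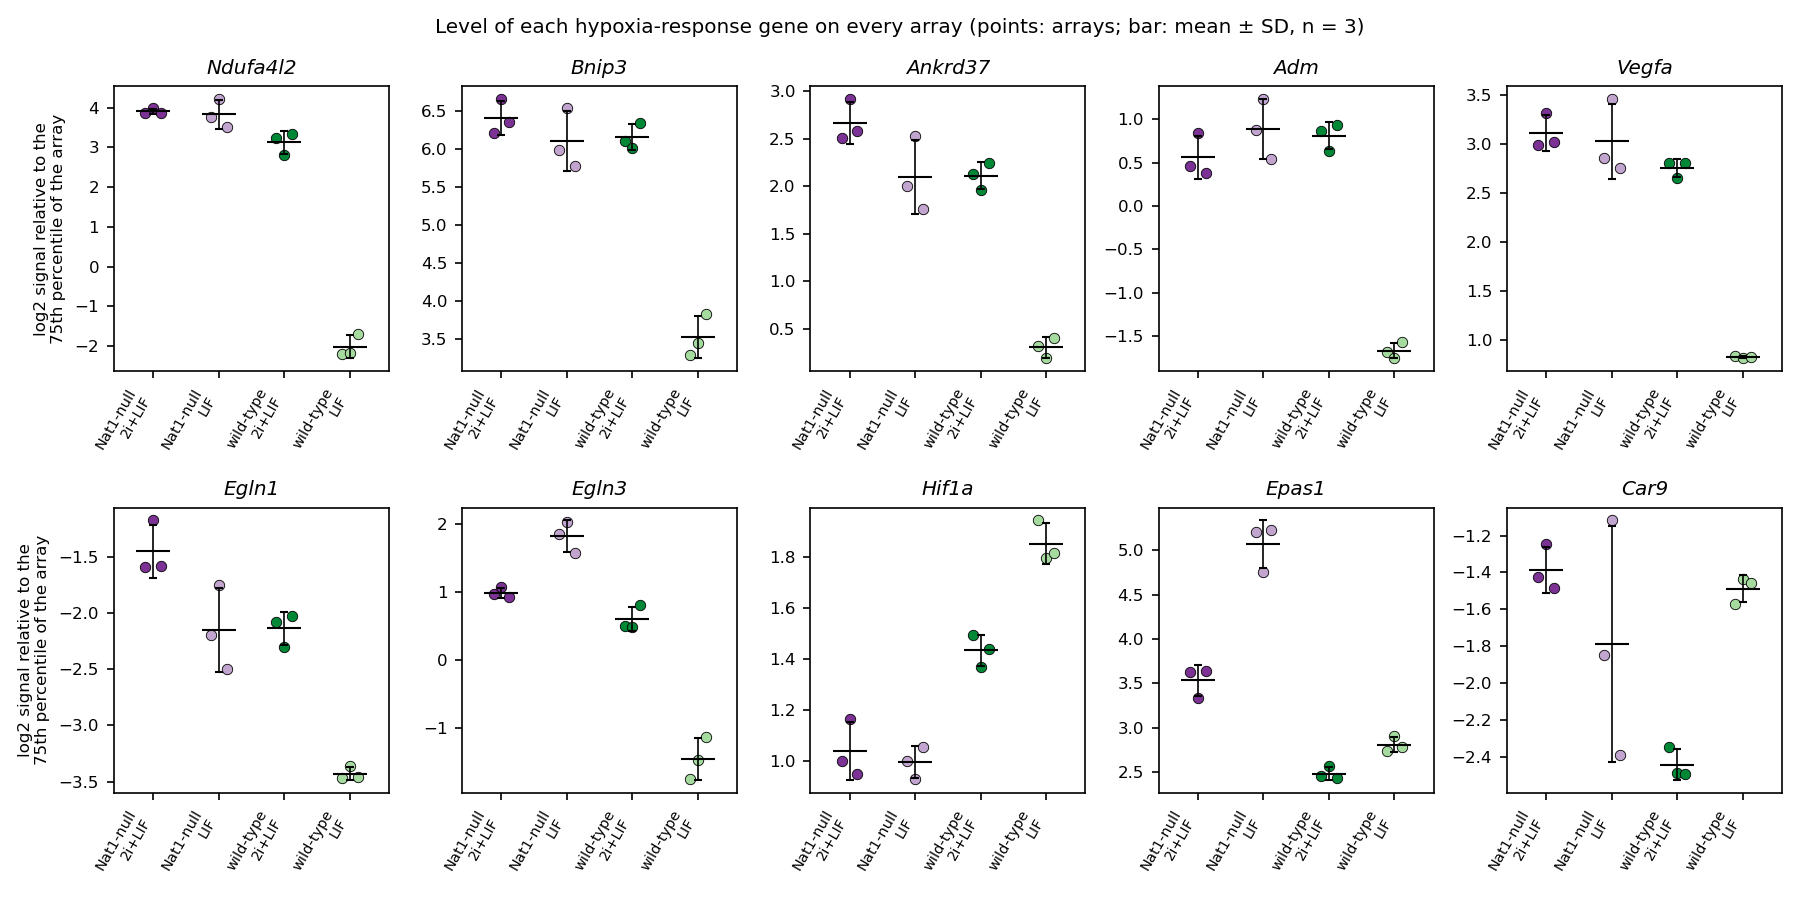
Level of each of the 10 genes on every array, as log2 signal with the array's 75th percentile set to 0, with each group's mean and SD (n = 3); each panel has its own vertical axis. The wild-type LIF arrays are the lowest of the 4 groups for Ndufa4l2, Bnip3, Ankrd37, Adm, Vegfa, Egln1 and Egln3, the highest for Hif1a, and neither for Epas1 and Car9.

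Both oxygen sensors in the set rose with the effectors. Egln1 (PHD2), the main HIF prolyl hydroxylase in most cells, had -1.59, -1.18 and -1.58 in Nat1-null 2i+LIF, -2.19, -1.75 and -2.50 in Nat1-null LIF, -2.08, -2.31 and -2.03 in wild-type 2i+LIF and -3.47, -3.36 and -3.46 in wild-type LIF arrays. Its groups formed 3 steps, with wild-type LIF at the bottom, wild-type 2i+LIF and Nat1-null LIF overlapping in the middle, and Nat1-null 2i+LIF on top. Egln1 rose 2.45-fold with 2i in wild-type cells (1.29, SE 0.18, adjusted p = 0.000148) and 2.43-fold with Nat1 loss in LIF (1.28, SE 0.18, adjusted p = 0.000124). It also rose 1.61-fold with Nat1 loss in 2i+LIF (adjusted p = 0.0112) and 1.63-fold with 2i in Nat1-null cells (adjusted p = 0.0127). The last call was lost in a fit on the 2 Nat1-null groups alone (adjusted p = 0.0837) and without scaling between arrays (0.51, adjusted p = 0.0616).

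Egln3 (PHD3), a prolyl hydroxylase gene that is itself a HIF target, had 0.97, 1.07 and 0.93 in Nat1-null 2i+LIF, 1.85, 2.04 and 1.58 in Nat1-null LIF, 0.50, 0.49 and 0.81 in wild-type 2i+LIF and -1.76, -1.48 and -1.14 in wild-type LIF arrays. No 2 groups overlapped, and Nat1-null LIF was highest. Egln3 rose 4.17-fold with 2i in wild-type cells (2.06, SE 0.17, adjusted p = 3.88e-06) and 9.72-fold with Nat1 loss in LIF (3.28, SE 0.17, adjusted p = 8.92e-08). In Nat1-null cells it fell with 2i, by 0.83 on the log2 scale (1.78-fold, adjusted p = 0.00357), whereas in 2i+LIF the Nat1-null minus wild-type difference of 0.39 did not pass (adjusted p = 0.0860). A second Egln3 probe gave 1.64, 2.87, -0.86 and 0.37 for the same 4 comparisons in the same order.

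The alpha subunits did not share that profile. Hif1a, the alpha subunit of HIF-1, had 1.00, 1.16 and 0.95 in Nat1-null 2i+LIF, 1.00, 0.93 and 1.05 in Nat1-null LIF, 1.49, 1.37 and 1.44 in wild-type 2i+LIF and 1.94, 1.80 and 1.82 in wild-type LIF arrays. Wild-type LIF arrays were highest, wild-type 2i+LIF arrays next and both Nat1-null groups lowest, where they overlapped. Hif1a fell 1.34-fold with 2i in wild-type cells (-0.42, SE 0.07, adjusted p = 0.000633), 1.81-fold with Nat1 loss in LIF (-0.86, SE 0.07, adjusted p = 3.19e-06) and 1.32-fold with Nat1 loss in 2i+LIF (-0.40, SE 0.07, adjusted p = 0.00161). Without scaling between arrays the last was -0.17 and did not pass (adjusted p = 0.177). In Nat1-null cells the 2i difference was 0.04 (95% CI -0.12 to 0.21, adjusted p = 0.667).

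Epas1, the alpha subunit of HIF-2, was read by 3 probes that disagreed. By the probe with the highest mean it had 3.63, 3.33 and 3.64 in Nat1-null 2i+LIF, 5.21, 4.75 and 5.23 in Nat1-null LIF, 2.45, 2.57 and 2.43 in wild-type 2i+LIF and 2.74, 2.91 and 2.79 in wild-type LIF arrays. No 2 groups overlapped, and Nat1-null LIF stood highest. Epas1 by this probe rose 4.77-fold with Nat1 loss in LIF (2.25, SE 0.13, adjusted p = 2.49e-07) and 2.07-fold with Nat1 loss in 2i+LIF (1.05, adjusted p = 0.000157), and fell 2.89-fold with 2i in Nat1-null cells (-1.53, adjusted p = 2.14e-05). For 2i in wild-type cells it differed by -0.33 (95% CI -0.62 to -0.03, adjusted p = 0.0542). That difference passed under 5 other processing settings and in 3 fits without 1 Nat1-null array, among them Nat1-null LIF replicate 2 (adjusted p = 0.0101). A second probe, A_55_P2053988, moved the same way in all 4: 0.98 and 0.61 for Nat1 loss in LIF and in 2i+LIF, and -1.06 and -0.69 for 2i in Nat1-null and in wild-type cells. The third, A_55_P2077448, gave 0.26 for Nat1 loss in LIF (adjusted p = 0.0156), but 0.46 for 2i in wild-type cells (adjusted p = 0.000703), and neither -0.04 for Nat1 loss in 2i+LIF nor 0.16 for 2i in Nat1-null cells passed. All 3 carry the same RefSeq accession. Passing differences of opposite sign occurred only for 2i in wild-type cells (-0.69 by the second probe and 0.46 by the third). For Nat1 loss in 2i+LIF and 2i in Nat1-null cells, the third probe had the other sign but did not pass. For Nat1 loss in LIF all 3 had the same sign.

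**Figure D2:**
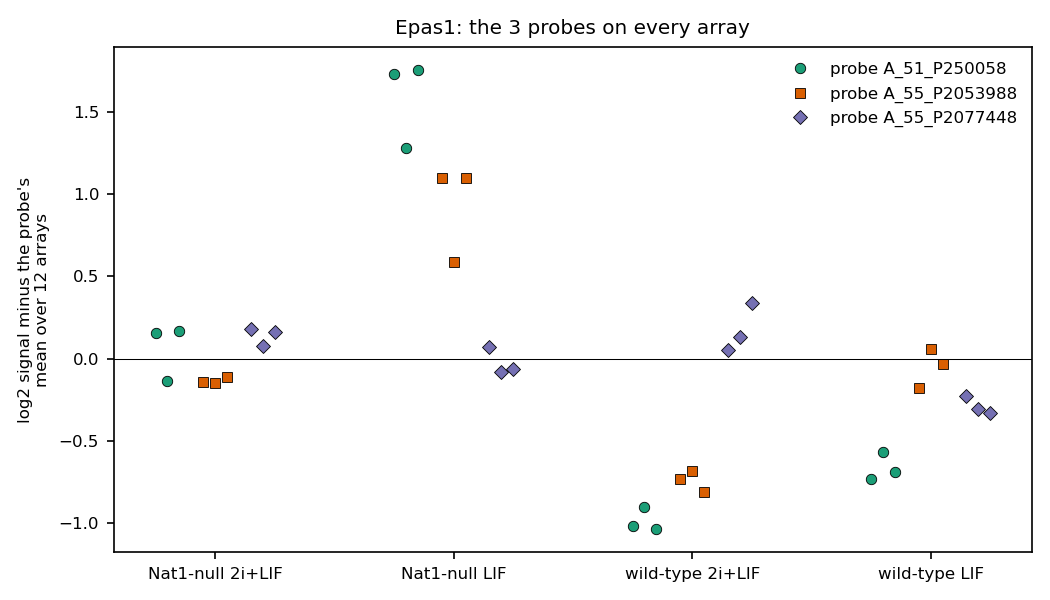
The 3 Epas1 probes on every array, each as log2 signal minus that probe's mean over the 12 arrays; symbols are probes and each point is 1 array. In Nat1-null LIF cells the first 2 probes are highest, whereas the third stays within 0.34 of its own mean on all arrays.

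Car9 (carbonic anhydrase 9), a membrane enzyme often used as a marker of hypoxic tissue, departed from the other targets. It had -1.42, -1.25 and -1.49 in Nat1-null 2i+LIF, -1.85, -1.12 and -2.39 in Nat1-null LIF, -2.35, -2.49 and -2.49 in wild-type 2i+LIF and -1.57, -1.44 and -1.46 in wild-type LIF arrays. The Nat1-null LIF arrays spread over more than 1 log2 unit (SD 0.64) and reached from above the wild-type LIF arrays down to the wild-type 2i+LIF arrays. Car9 fell 1.94-fold with 2i in wild-type cells (-0.96, SE 0.25, adjusted p = 0.00723) and rose 2.08-fold with Nat1 loss in 2i+LIF (1.06, SE 0.25, adjusted p = 0.00652). Nat1 loss in LIF (-0.30, adjusted p = 0.311) and 2i in Nat1-null cells (0.40, adjusted p = 0.234) did not pass. Without Nat1-null LIF replicate 2 these became -0.63 and 0.74, and both passed (adjusted p = 0.00401 and 0.00375).

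Counted over the set, 6 of the 9 genes other than Ndufa4l2 rose with 2i in wild-type cells, 2 fell and 1 did not pass, where 35% of all genes tested rose and 27.2% fell. All 6 rose at least 2-fold, as did 7.17% of all genes, and none of the 9 fell as much, as 12% of all genes did. Groups did not overlap for 6 that were higher and 3 that were lower, as for 41.8% and 34.8% of all genes. With Nat1 loss in LIF, 7 of 9 rose, 1 fell and 1 did not pass, where 33.9% of all genes rose and 32.9% fell. All 7 rose at least 2-fold, against 9.89%, and none fell 2-fold, against 16.1%. Epas1 is among the 7 at 2-fold only by its brightest probe, as its others gave 0.98 and 0.26. Groups did not overlap for 7 that were higher and 1 that was lower, against 36.6% and 36.2% of all genes. The median log2 difference of the 9 was 1.81 for 2i in wild-type cells and 2.20 for Nat1 loss in LIF, beside 0.06 and 0.02 for all genes. Both comparisons use the same wild-type LIF arrays.

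The other 2 comparisons were counted with Ndufa4l2 included. With Nat1 loss in 2i+LIF, 5 of 10 rose, 1 fell and 4 did not pass, where 21% of all genes rose and 22.6% fell. Groups did not overlap for 7 genes that were higher and 1 that was lower, as for 28% and 29.3% of all genes. Epas1 and Car9 rose at least 2-fold and no gene fell 2-fold, against 3.38% and 7.48% of all genes. For Epas1 this holds only for its brightest probe, as its others gave 0.61 and -0.04. Unscaled, 7 were higher and none lower, where 75.9% of the calls over all genes were higher. With 2i in Nat1-null cells, 2 rose (Egln1 and Ankrd37), 2 fell (Egln3 and Epas1) and 6 did not pass, where 21.4% of all genes rose and 15.8% fell. None rose 2-fold and Epas1 fell more than 2-fold, as did 3.7% and 4.3% of all genes. Groups did not overlap for 1 that was higher (Egln1) and 2 that were lower (Egln3 and Epas1), as for 26.1% and 17.5%. The median of the 10 was 0.47 for Nat1 loss in 2i+LIF and 0.08 for 2i in Nat1-null cells, beside -0.01 and 0.05 for all genes. Without scaling none rose and 2 fell in this last comparison, which is the one made within a slide. Over all genes, 22.2% of the unscaled calls were higher in it.

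**Figure D3:**
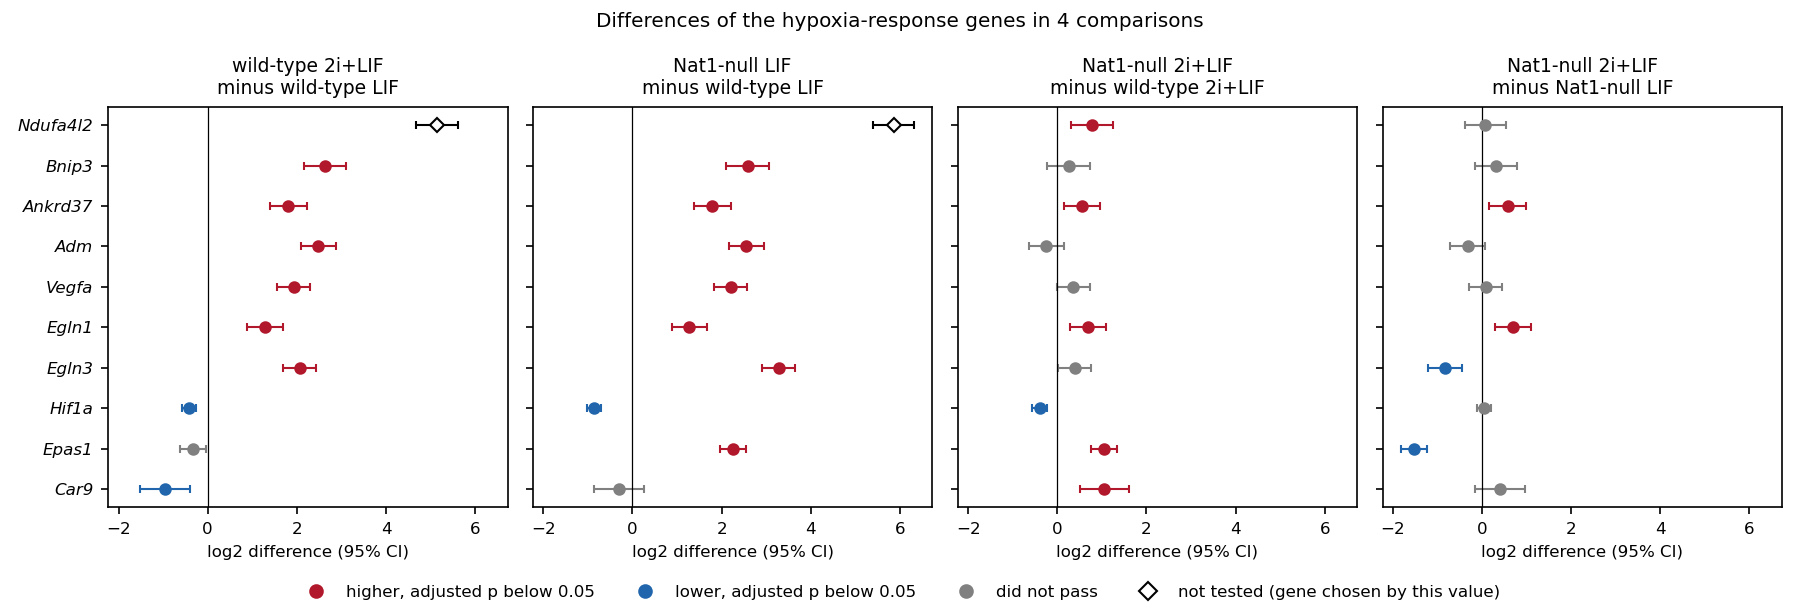
Log2 difference of each of the 10 genes in 4 comparisons, with 95% confidence intervals from limma; colour gives the call and open diamonds the values that chose Ndufa4l2. In the first 2 panels the genes that rose, apart from Ndufa4l2, lie between 1.28 and 3.28, and in the fourth none exceeds 0.70.

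The response to 2i itself was compared between genotypes by the interaction term, the 2i difference in Nat1-null cells minus that in wild-type cells. It was below 0 for 6 of 9 genes and above 0 for 2 at adjusted p below 0.05, where 26.1% and 23.6% of all genes were. It was past 1 log2 unit for all 6 and for 1 of the 2, against 8.51% and 11.8% of all genes. The largest was Egln3 at -2.89 (95% CI -3.42 to -2.37, adjusted p = 7.56e-06), which fell with 2i in Nat1-null cells and rose with 2i in wild-type cells. Adm (-2.80), Bnip3 (-2.33), Vegfa (-1.85) and Ankrd37 (-1.24) had a smaller 2i difference in Nat1-null cells than in the wild type. Epas1 had a term of -1.20 by its brightest probe, and the other 2 probes did not pass (-0.37 and -0.30). Hif1a (0.46, adjusted p = 0.00404) and Car9 (1.36, adjusted p = 0.00942) fell with 2i in wild-type cells and did not pass in Nat1-null cells. Egln1 (-0.59, adjusted p = 0.0782) did not pass, but did with quantile normalization (-0.84, adjusted p = 0.0114) and without Nat1-null LIF replicate 3 (-0.77) or Nat1-null 2i+LIF replicate 2 (-0.73).

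The genes also varied together between replicates of 1 group. In Nat1-null LIF cells, replicate 2 was highest and replicate 3 lowest for 8 of 10 genes, an order that 22.8% of all genes had, and the reverse held for Hif1a and Epas1, as for 20.3% of all genes. Bnip3, for example, was 6.54 in replicate 2 and 5.77 in replicate 3, and Car9 was -1.12 and -2.39. In Nat1-null 2i+LIF cells, replicate 2 was highest for 9 of 10 genes, all but Epas1, against 33.5% of all genes. In wild-type 2i+LIF cells, replicate 2 was lowest for 8 of 10 genes, against 29.8%. Within the Nat1-null slide, Nat1-null LIF replicate 3 and the 3 Nat1-null 2i+LIF arrays shared a row whose negative controls averaged -16.4 to -10.2, outside the range the scanner program accepts. Against that 1 array in its own row, the Nat1-null 2i+LIF mean differed by 1.05 for Egln1, 1.01 for Car9, 0.91 for Ankrd37, 0.64 for Bnip3, 0.40 for Ndufa4l2, 0.35 for Vegfa, 0.02 for Adm, -0.02 for Hif1a, -0.59 for Egln3 and -1.70 for Epas1. Against all 3 Nat1-null LIF arrays the differences were 0.70, 0.40, 0.57, 0.31, 0.08, 0.09, -0.32, 0.04, -0.83 and -1.53 in the same order of genes, so the sign differed for Adm and Hif1a. Whether the row or the culture sets these values was not tested.

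**Figure D4:**
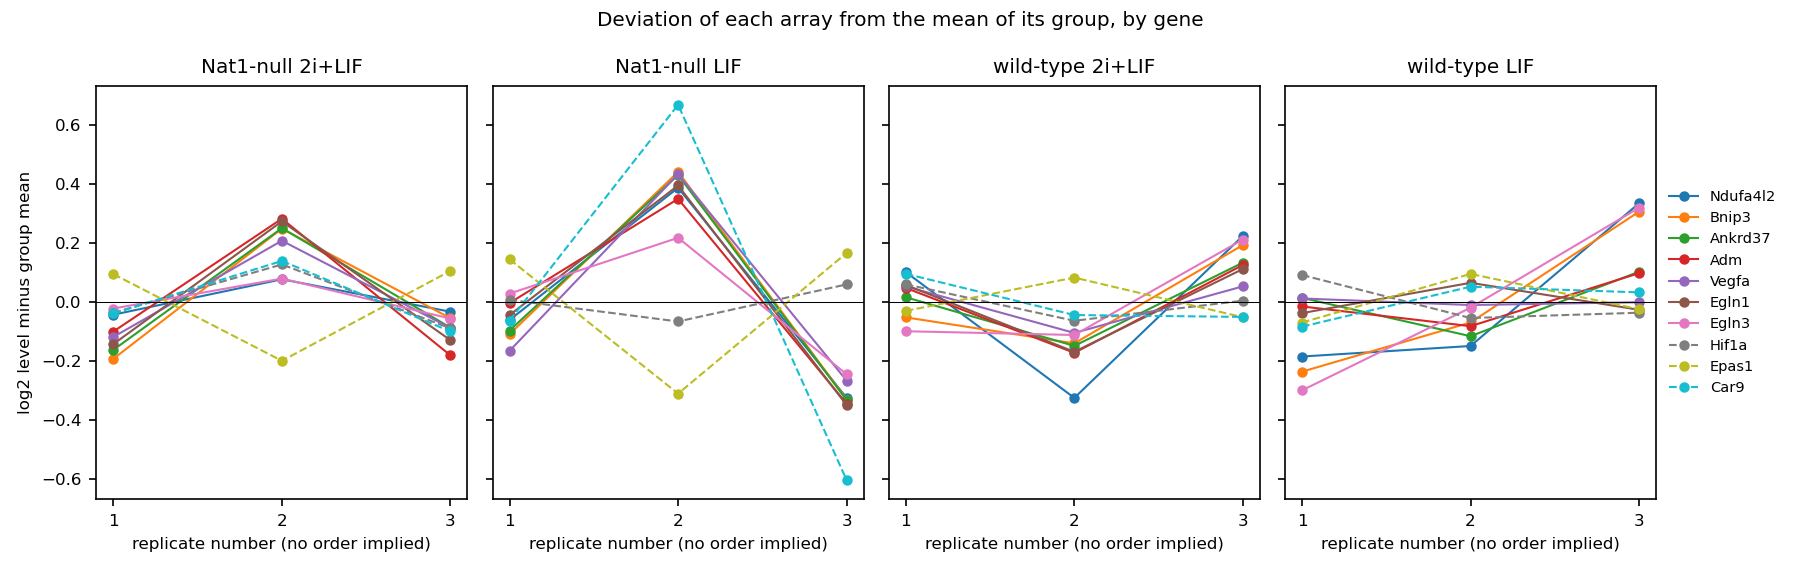
Deviation of each array from the mean of its group, in log2 units, by replicate number (which implies no order), with 1 line per gene; dashed lines are Hif1a, Epas1 and Car9. In Nat1-null LIF cells replicate 2 lies above and replicate 3 below the group mean for 8 genes, and Hif1a and Epas1 run the other way.

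The wider HIF pathway was described by lists of other genes. Of 26 HIF targets of glucose metabolism, 25 rose and none fell with 2i in wild-type cells, and 21 rose and none fell with Nat1 loss in LIF, with a median log2 difference of 1.18 in both. Of all genes, 35% rose and 27.2% fell in the first comparison and 33.9% and 32.9% in the second. Without scaling between arrays the first split was 17 higher and 3 lower, with a median of 0.61, where 12.8% of the unscaled calls over all genes were higher. Aldoc, a glycolytic aldolase, was 5.66 ± 0.19 in wild-type 2i+LIF cells, 5.30 ± 0.46 in Nat1-null LIF cells and 2.42 ± 0.23 in wild-type LIF cells (SD, n = 3 each), which is 9.40-fold and 7.35-fold higher. Slc16a3, the lactate exporter MCT4, rose 4.77-fold and 5.42-fold in the same comparisons. Slc2a3, a glucose transporter, rose 4.45-fold and Pygl, which breaks down glycogen, rose 4.82-fold with 2i in wild-type cells. Gys1, a glycogen synthase, and Pfkp and Pfkl, subunits of phosphofructokinase, rose 5.94-fold, 5.03-fold and 4.68-fold with Nat1 loss in LIF. With Nat1 loss in 2i+LIF, 15 rose and 2 fell (median 0.45), Pfkfb4 (2.29-fold) and Hk2 (2.09-fold) the most, where 21% of all genes rose and 22.6% fell. Without scaling 19 were higher and none lower, where 75.9% of the unscaled calls over all genes were higher. With 2i in Nat1-null cells, 16 rose and 2 fell (median 0.33), where 21.4% and 15.8% of all genes did. At least 2-fold, 3 rose (Pygl 3.13-fold, Ak4 2.24-fold and Pfkfb3 2.14-fold) and 1 fell (Gys1, 2.24-fold). Of all genes, 3.7% rose and 4.3% fell as much. With quantile normalization or without scaling, 7 rose and 2 fell by any amount, where 48.7% and 22.2% of the calls over all genes were higher.

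Other HIF targets were split. Of 41 tested, 22 rose and 10 fell with 2i in wild-type cells (median 0.48), and 22 rose and 11 fell with Nat1 loss in LIF (median 0.32). Over all genes, 35% rose and 27.2% fell with 2i in wild-type cells, and 33.9% rose and 32.9% fell with Nat1 loss in LIF. The numbers that fell by any amount were thus not above those shares. At least 2-fold, 10 rose and 8 fell with 2i in wild-type cells, where 7.17% and 12% of all genes did. With Nat1 loss in LIF, 9 rose and 11 fell at least 2-fold, where 9.89% and 16.1% of all genes did. Without scaling between arrays the first split was 13 higher and 18 lower, with a median of -0.09. Over all genes, 12.8% of the unscaled calls were higher there. Bhlhe40, a repressor of transcription, rose 6.32-fold with 2i in wild-type cells and 8.18-fold with Nat1 loss in LIF. Ndrg1, which responds to stress and differentiation, rose 5.80-fold and 7.23-fold, and P4ha1, a collagen prolyl hydroxylase, 4.003-fold and 5.36-fold. Tfrc, the transferrin receptor, rose 4.16-fold and Ero1a, an oxidase of the endoplasmic reticulum, 3.23-fold with 2i in wild-type cells, and the histone demethylase gene Kdm4b and Zfp395 rose 4.42-fold and 3.78-fold with Nat1 loss in LIF.

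The members that fell included secreted and surface proteins. Edn1, the endothelin-1 precursor, was 13.4-fold lower with 2i in wild-type cells and at least 44.7-fold lower with Nat1 loss in LIF, where it was not well above background. Egfr was 6.65-fold and 12.5-fold lower in the same comparisons. Nt5e (7.77-fold) and Flt1 (6.21-fold) were lower with 2i in wild-type cells, and Igfbp3 (10.005-fold) with Nat1 loss in LIF. Of 14 fibroblast markers tested, 10 fell and 2 rose with 2i in wild-type cells (median -2.70). With Nat1 loss in LIF, 11 of them fell and 1 rose (median -2.96). Of all genes, 27.2% fell and 35% rose in the first comparison, and 32.9% fell and 33.9% rose in the second. Of 7 endothelial markers tested, beside the same shares, 3 fell and 1 rose with 2i in wild-type cells (median -0.72). With Nat1 loss in LIF, 5 of the 7 fell and 1 rose (median -1.63). All 14 and all 7 markers tested were above background throughout wild-type LIF cells, and fewer were in each other group. A marker could thus pass the filter on dim probes through wild-type LIF cells alone, as Postn did. Such a marker could mainly fall in these 2 comparisons, so the counts are not a test against the shares of all genes. The summed signal of all 10 endothelial markers was 3.53 to 3.94 in Nat1-null 2i+LIF, 3.02 to 3.099 in Nat1-null LIF, 2.33 to 2.51 in wild-type 2i+LIF and 2.65 to 2.82 in wild-type LIF cells. On all arrays of those groups, 3, 4, 5 and 7 of the 10 were above background, and Tie1 and Emcn were on no array. The part of either marker list in the fall of these HIF targets was not tested.

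In the other 2 comparisons fewer members of this list were called. With Nat1 loss in 2i+LIF, 15 rose and 4 fell (median 0.14), where 21% and 22.6% of all genes did, with Kdm4b 2.44-fold and Ppfia4 2.30-fold among those that rose, and Igfbp3 2.63-fold and Hmox1 2.07-fold among those that fell. With 2i in Nat1-null cells, 17 rose and 3 fell (median 0.29), where 21.4% and 15.8% of all genes did. P4ha2, another collagen prolyl hydroxylase, was 2.34-fold higher, a call lost when only the 2 Nat1-null groups were fitted, and Flt1 was 2.01-fold lower. Without scaling between arrays, 7 rose and 5 fell in this comparison, where 22.2% of the unscaled calls over all genes were higher.

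**Figure D5:**
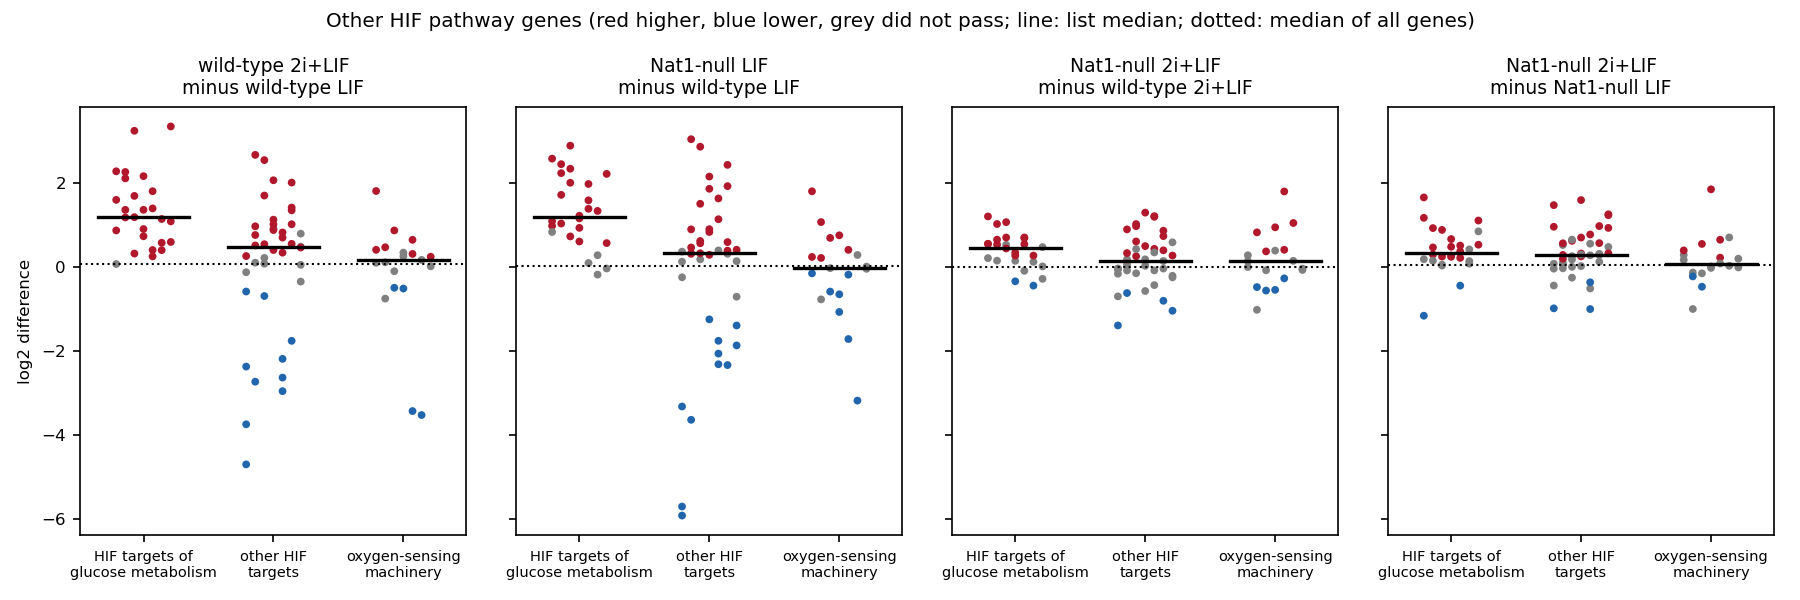
Log2 difference of every tested gene of 3 other HIF pathway lists in 4 comparisons; red points rose, blue points fell and grey points did not pass, with the list median as a bar and the median of all genes dotted. The median of HIF targets of glucose metabolism is 1.18 in the first 2 panels, 0.45 in the third and 0.33 in the fourth.

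Of 19 genes of the oxygen-sensing machinery, 7 rose and 4 fell with 2i in wild-type cells and 7 rose and 7 fell with Nat1 loss in LIF. These counts were near the shares of all genes, of which 35% rose and 27.2% fell in the first comparison and 33.9% and 32.9% in the second. With Nat1 loss in 2i+LIF 6 rose and 4 fell (21% and 22.6% of all genes), and with 2i in Nat1-null cells 5 rose and 2 fell (21.4% and 15.8%). The splits turned with the scaling, as did the calls over all genes. Without it, 1 rose and 12 fell with 2i in wild-type cells, and 4 rose and 9 fell with Nat1 loss in LIF. With Nat1 loss in 2i+LIF 12 rose and 3 fell, and with 2i in Nat1-null cells 2 rose and 5 fell. Over all genes, 12.8%, 39.3%, 75.9% and 22.2% of the unscaled calls were higher in the same order, against 56.2%, 50.7%, 48.1% and 57.5% with scaling. Arnt, the partner of the alpha subunits, was 3.09 ± 0.07 in Nat1-null 2i+LIF, 2.81 ± 0.18 in Nat1-null LIF, 2.82 ± 0.06 in wild-type 2i+LIF and 1.02 ± 0.25 in wild-type LIF cells (SD, n = 3 each). It rose 3.48-fold with 2i in wild-type cells (adjusted p = 1.54e-06) and 3.47-fold with Nat1 loss in LIF (adjusted p = 8.75e-07), and its differences of 0.27 and 0.28 in the other 2 comparisons did not pass. Vhl rose in all 4 comparisons, by 0.64 with 2i in wild-type cells, 0.40 with Nat1 loss in LIF, 0.40 with Nat1 loss in 2i+LIF and 0.64 with 2i in Nat1-null cells. Without scaling between arrays, the first 2 were 0.07 and 0.25 and did not pass.

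Hif3a, an alpha subunit gene with inhibitory isoforms, was 0.79 ± 0.11 in Nat1-null 2i+LIF, -1.05 ± 0.42 in Nat1-null LIF, -0.15 ± 0.15 in wild-type 2i+LIF and -0.39 ± 0.07 in wild-type LIF cells (SD, n = 3 each). It rose 3.58-fold with 2i in Nat1-null cells and 1.92-fold with Nat1 loss in 2i+LIF, fell 1.57-fold with Nat1 loss in LIF, and did not pass for 2i in wild-type cells. The coactivators of HIF differed: Ep300 rose 2.09-fold and Crebbp fell 2.11-fold with Nat1 loss in LIF, and 1.76-fold and 1.46-fold in 2i+LIF. Siah2, a ligase that degrades prolyl hydroxylases, rose 1.82-fold with 2i in wild-type cells and 1.46-fold with 2i in Nat1-null cells, and passed in neither without scaling between arrays. Npas1 and Npas3, related transcription factors, were at least 8.38-fold and at least 5.58-fold lower with 2i in wild-type cells, where their probes were not well above background. For Npas3 this depended on the processing: without the filter on dim probes another probe stood for it and gave 0.35, which did not pass, and with normexp background correction its log2 difference was -0.59. Egln2 and Hif1an, the other prolyl hydroxylase and the asparagine hydroxylase of HIF, passed in none of the 4 comparisons on the main scale, with differences between -0.16 and 0.28, but without scaling Egln2 was -0.40 and Hif1an -0.67 for 2i in wild-type cells, and both passed.

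The related gene Ndufa4 encodes a subunit of complex IV. It rose by 0.30 with 2i in wild-type cells, by 0.21 with Nat1 loss in LIF and by 0.22 with 2i in Nat1-null cells, and its 0.13 with Nat1 loss in 2i+LIF did not pass. With quantile normalization none of the 4 passed, and without scaling between arrays the first turned to -0.26. Of 16 complex IV genes other than Ndufa4l2, 15 rose and none fell with 2i in wild-type cells, and 12 rose and none fell with Nat1 loss in LIF, with medians of 0.47 and 0.44, where 35% and 33.9% of all genes rose. Without scaling the split for 2i in wild-type cells became 3 higher and 6 lower. Cox6b2, Cox7a1 and Cox4i2, which are isoforms of complex IV subunits, rose the most with 2i in wild-type cells, at 4.27-fold, 3.85-fold and 2.41-fold. With Nat1 loss in 2i+LIF, 5 rose and 3 fell, near the 21% and 22.6% of all genes, and without scaling 10 were higher and 2 lower. With 2i in Nat1-null cells 8 rose and none fell, where 21.4% and 15.8% of all genes did. This split became 3 and 3 with quantile normalization and 0 and 2 without scaling. Over all genes, 12.8% of the unscaled calls were higher with 2i in wild-type cells. The share was 75.9% with Nat1 loss in 2i+LIF and 22.2% with 2i in Nat1-null cells.

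Over the 12 arrays, the profile most like that of Ndufa4l2 among 15427 other named genes was that of Cdkn2d (Pearson r = 0.997), followed by Pttg1ip (0.997), Slc12a7 (0.997), Fsbp (0.996), Tmem8b (0.995) and Itpr3 (0.994). None of these is on the HIF lists used here. Of the 9 other hypoxia-response genes, Vegfa was nearest at 0.991 and rank 30, then Bnip3 (0.986, rank 78), Adm (0.974, rank 212), Ankrd37 (0.966, rank 360), Egln3 (0.952, rank 610) and Egln1 (0.920, rank 1177). Epas1 (0.453), Car9 (-0.208) and Hif1a (-0.905) were far from it. These correlations are descriptions, since the arrays of a group share medium, genotype and slide and the wild-type LIF arrays lie apart from the rest.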

How the data were processed

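Cy3-labelled RNA of 12 samples, in 4 groups of 3, was read on single-colour Agilent arrays. The scanner files, per the file headers, give intensity values written by Agilent Feature Extraction 10.7.3.1, background-subtracted and unscaled between arrays. In the series table deposited by the authors the values are log2, and they equal those computed here apart from a constant per array. Control and outlier spots were dropped, log2 processed signals of a probe's spots were averaged, and the 75th percentile was subtracted array by array. Complete values existed for 54229 of 55681 probes, and 33293 of them passed a filter that asked for signal well above background throughout at least 1 group. The brightest probe by mean over all arrays stood for each of 24463 genes. Symbols came from RefSeq accessions of GRCm38.p6, for 15428 of these genes.

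A mean for each group was fitted with limma 3.58.1 (R 4.3.3), with two-sided tests, Benjamini-Hochberg adjustment across all genes tested and calls at adjusted p below 0.05. Where no array of a group was well above background, a fold was computed against the lowest signal well above background and is given as "at least". The fit was tested on simulated data. The number of arrays, 3 per group, limits the precision, and 49.8% to 66.3% of gene spots per array were well above background. The labels use the same numbers in every group and do not say what they share. Deviations of same-numbered samples from the group means correlated above 0.1 in 1 of 18 pairs (replicate 2 of the Nat1-null cells in both media, r = 0.30). The 18 include pairs across genotypes, which cannot be the same cells. Between the 2 media, replicates 1 to 3 gave -0.002, -0.008 and -0.035 in wild-type and 0.04, 0.30 and 0.01 in Nat1-null cells. The fit has no block. The replicate block tried as an alternative joined numbers across genotypes, so pairing within a genotype was not fitted. The 10 genes and the lists were chosen with earlier results of these data known. All 10 were named throughout. Of the other lists, the called genes with the largest differences were named (up to 5 per direction and comparison for HIF targets with groups that did not overlap, up to 6 for oxygen sensing and up to 4 for complex IV). Arnt, Vhl, Hif1an, Egln2, Hif3a and Ndufa4 were named whatever their values, as were the 6 genes with profiles most like Ndufa4l2. A few genes that this rule would name are counted in their list but not reported here by name. Promoter sequences are from RefSeq. Alternatives varied the scaling, background correction, source table, filter, probe choice, samples fitted, replicate block and each single array. Figures and tables were drawn in Python 3.11.15 (pandas 2.3.3; numpy 2.4.6; matplotlib 3.10.9).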

Additional observations from a re-analysis of the deposited data

Results flagged for a closer look

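The response to 2i, tested as the 2i difference in Nat1-null cells minus that in wild-type cells on the log2 scale, differed between the genotypes for 8 of the 9 genes tested, 6 below 0 and 2 above, where 26.1% of all genes were below and 23.6% above. The term was -2.89 for Egln3, -2.80 for Adm, -2.33 for Bnip3, -1.85 for Vegfa, -1.24 for Ankrd37 and -1.20 for Epas1, and it was 0.46 for Hif1a and 1.36 for Car9. The other 2 Epas1 probes did not pass (-0.37 and -0.30). A value below 0 means a lower 2i difference in Nat1-null cells than in the wild type.

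The same test was applied to other HIF pathway genes, and those named are among the largest terms. Terms above and below 0 passed for 10 and 16 of 41 other HIF targets and 0 and 19 of 26 glucose targets. They passed for 5 and 3 of 19 oxygen-sensing genes and 0 and 8 of 16 complex IV genes. Of all genes, 23.6% were above and 26.1% below. Without scaling these counts were 12 and 9, 2 and 15, 10 and 2, and 2 and 2. Of the unscaled calls over all genes, 78.5% were higher. Among HIF targets outside glucose metabolism, the term was above 0 for Edn1 (5.21), Nt5e (3.51) and Egfr (3.01), all of which fell with 2i in wild-type cells. Edn1 was well above background on no Nat1-null array, so the size of its term rests partly on signal near background. It was below 0 for Bhlhe40 (-2.14), Ndrg1 (-1.89), P4ha1 (-1.69), Tfrc (-1.36) and Cxcr4 (-1.12), all of which rose with 2i in wild-type cells. Among HIF targets of glucose metabolism it was -2.49 for Ppp1r3c, -2.36 for Aldoc, -2.03 for Gys1, -1.79 for Slc16a3 and -1.64 for Pfkp. Of the oxygen-sensing genes, Npas3 (4.22), Npas1 (3.51), Hif3a (1.59) and Crebbp (0.53) had positive terms, and Arnt (-1.52) and Siah1a (-0.69) negative ones. Npas3 was well above background only in wild-type LIF cells, and Npas1 on no wild-type 2i+LIF array. The sizes of these terms therefore also rest partly on signal near background. The term of Npas3 was -1.35 and did not pass without the filter on dim probes, when another probe stood for the gene, and was 0.58 with normexp. Of complex IV, Cox7a1 (-1.79), Cox6b2 (-1.71), Cox8a (-0.48) and Cox5a (-0.47) had negative terms. Where a gene's 2i difference in Nat1-null cells was small, its term is close to the wild-type 2i difference with the sign reversed. No cause was tested.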

How the results depend on the processing

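Over 21 alternative settings, 18 of 1040 values of the 10 genes lost a call, 23 gained one, 5 untested values of Ndufa4l2 moved by more than the replicate spread and the other 994 did neither. Part of this was fixed in advance. The deposited values equal those used here apart from a constant per array. Leaving out an array outside a comparison of 2 groups keeps its difference, and only the p-value can change. The sign was opposite to that of the main analysis in 9 values of 4 small differences, none called in either: for 2i in Nat1-null cells Ndufa4l2 (down to -0.12), Vegfa (-0.11) and Hif1a (-0.15), each at its lowest without scaling, and for Nat1 loss in LIF Car9 (0.0036 without Nat1-null LIF replicate 3). Without scaling between arrays, the median of all genes shifted by -0.57 for 2i in wild-type cells, -0.15 for Nat1 loss in LIF, 0.22 for Nat1 loss in 2i+LIF, -0.19 for 2i in Nat1-null cells and 0.37 for the interaction. The share of calls that were higher was then 12.8% (56.2% with scaling), 39.3% (50.7%), 75.9% (48.1%), 22.2% (57.5%) and 78.5% (47.4%) in the same order. Without scaling, 0 of the 10 genes were lower with Nat1 loss in 2i+LIF, and Egln2 (-0.40) and Ndufa4 (-0.26, interaction 0.29) turned direction for 2i in wild-type cells. The number higher with 2i in Nat1-null cells, 2 in the main analysis, was 1 with quantile normalization, 0 without scaling, 1 without the filter, 0 when only the 2 groups were fitted (which called 4846 genes in place of 9079) and 1 with the replicate block. Leaving out 1 array gave 1 to 5 there, the 5 without Nat1-null LIF replicate 2, and 1 to 2 genes lower with Nat1 loss in LIF, the 2 without the same array. Without the filter, another Npas3 probe was used and gave 0.35 for 2i in wild-type cells, 0.97 for Nat1 loss in LIF, -0.38 for Nat1 loss in 2i+LIF and -1.35 for the interaction, and with normexp Npas3 was -0.26 for Nat1 loss in 2i+LIF. The Epas1 probe A_55_P2077448, an alternative chosen after seeing the data, gave 0.46 for 2i in wild-type cells, -0.036 for Nat1 loss in 2i+LIF and 0.16 for 2i in Nat1-null cells. The cause of these changes was not tested. With the replicate number as a block, the call of Ankrd37 for 2i in Nat1-null cells was lost (0.57, adjusted p = 0.0509) and no other call of the 10 genes changed. That block joined same-numbered samples of both genotypes, so it does not show what pairing within a genotype would do. In deviations from the group means over all genes, 2 of 12 arrays correlated best with an array of their own number. Replicate 2 of the Nat1-null cells did correlate across the 2 media (r = 0.30). It was the highest replicate for 8 of the 10 genes in LIF and 9 in 2i+LIF, against 34.8% and 33.5% of all genes.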
